A study of Mus musculus with 12 samples.

Results

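The phagocyte NADPH oxidase is the enzyme complex with which macrophages and neutrophils turn molecular oxygen into superoxide. The 6 genes described here are *Cybb*, *Cyba*, *Ncf1*, *Ncf4*, *Rac1* and *Rac2*. They were taken by name, and all 6 were found among the 13232 genes of the expression table. The study measured RNA in bone marrow-derived macrophages, cells grown from mouse marrow with the growth factor M-CSF. The marrow came from wild-type C57B6/J mice on a high-fat diet (HFD) or on normal chow, the normal diet (ND). Age, sex and time on the diet are not given in the labels, nor whether each library stands for 1 mouse. Cultures of both diets grew with M-CSF at 20 ng/ml, were changed to a serum-free medium at day 4 and were kept for 1 h at 1% oxygen at day 7. There were 3 libraries per diet, and the normal-oxygen libraries of the study were not analysed here. The comparison is therefore between the diet groups at 1% oxygen and does not bear on the effect of low oxygen. Because the labels do not say which animal or culture each library came from, diet cannot be told apart from these.

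The oxidase rests in pieces and works only when they meet. *Cybb* encodes the catalytic membrane subunit (gp91phox, also called NOX2) and *Cyba* its membrane partner (p22phox), and together they form flavocytochrome b558. *Ncf1* (p47phox, the organizer) and *Ncf4* (p40phox, which binds a phosphoinositide of the phagosome membrane) encode cytosolic subunits that move to the membrane when the cell is stimulated. A GTP-bound Rac protein completes the complex; *Rac1* is expressed in nearly all tissues and *Rac2* mainly in blood cells. Inherited loss of oxidase subunits causes chronic granulomatous disease, in which phagocytes ingest microbes but kill them poorly. Since oxygen is the substrate, the complex is of interest in cells held at low oxygen.

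*Rac1* and *Rac2* encode closely related proteins, so it was checked first whether reads of 75 bases can tell them apart. The coding sequences have the same length, 579 bases, and are identical at 77.0% of positions, with no identical run longer than 29 bases. The last 75 coding bases are shown because the proteins of the Rac family differ most at this end. Each ends with its stop codon, reads 5′ to 3′ on the coding strand, and was taken from GENCODE M21 (mouse build GRCm38, the same as mm10); capitals mark the 32 positions at which the pair differs.
Rac1: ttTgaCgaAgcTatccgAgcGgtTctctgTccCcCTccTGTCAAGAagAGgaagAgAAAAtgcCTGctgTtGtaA
Rac2: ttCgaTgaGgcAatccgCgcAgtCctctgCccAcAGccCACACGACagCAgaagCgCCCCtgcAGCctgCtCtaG
The *Rac1* stretch lies at chr5:143506975-143507049 and the *Rac2* stretch at chr15:78561908-78561982, both on the minus strand. No 75-base window of the annotated transcripts of *Cybb*, *Cyba*, *Ncf1*, *Ncf4*, *Rac1* or *Rac2* occurred in a transcript of any other gene. Only exact matches on the transcript strand were sought, so overlaps with genes on the opposite strand, given below, lie outside this check.

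The genes lie on 4 chromosomes. *Cybb* is X-linked, at chrX:9435252-9487771, and *Cyba* lies at chr8:122424776-122432930. *Ncf1* (chr5:134220053-134229625) and *Rac1* (chr5:143503634-143528036) share a chromosome, as do *Ncf4* (chr15:78244801-78262580) and *Rac2* (chr15:78559167-78572783). *Rac1* overlaps the gene *Daglb* on the opposite strand over 2309 of its 4496 exonic bases (51.4%), and the signal of *Daglb* was high, from 4611 to 6960. *Ncf1* shares 408 of 3663 exonic bases (11.1%) with *Gtf2ird2* on the opposite strand, whose signal was 191 to 241. The libraries were made with a stranded kit, but whether the counting used the strand is not given in the sources used here, so the share of *Daglb* reads in the *Rac1* values cannot be told. *Cyba* lies inside an intron of the annotated gene *Gm20388* on the opposite strand, with 0 exonic bases shared. *Cybb*, *Ncf4* and *Rac2* overlap no other annotated gene.

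Estimated depth was 19046400 to 24491500 reads per library, and the shallowest was ND replicate 3. On the first principal component of 10794 genes (43.4% of the variance), ND replicates 1 and 2 scored -14.0 and -13.5 and HFD replicates 2 and 3 scored 11.3 and 11.4. The scores of ND replicate 3 (3.43) and HFD replicate 1 (1.33) fell in the middle, so each of these libraries stood apart from its own diet. Leaving out a library from the middle can only widen the gap between the diets on this component; values without ND replicate 3 below are read with that limit. All 12 macrophage markers were measured, with a summed signal of 375760 to 434827 per library, most of it *Lyz2* (216365 to 267532). Without overlap between the diets, *Adgre1* was higher in HFD (25890 to 28364 in ND, 29047 to 32633 in HFD). *Cd14* was lower without overlap (3969 to 4019 in ND, 2981 to 3678 in HFD), and the rest of the 12 overlapped. Neutrophils also carry this oxidase; 8 of 14 neutrophil markers were measured, with a summed signal of 2929 to 3958 in ND and 3447 to 4985 in HFD, and the defining *Ly6g* and *Camp* were among the 6 with no row. Of the 8, *Mmp8* (443 to 463 in ND, 707 to 1032 in HFD) and *Mmp9* (63.9 to 175 in ND, 234 to 320 in HFD) did not overlap between the diets, while *S100a8*, *S100a9*, *Ltf*, *Ngp*, *Lcn2* and *Csf3r* did. Among all genes 14.5% did not overlap, 7.44% higher and 7.07% lower in HFD. Of 7 dendritic cell markers 1 was measured, *Itgax*, which macrophages also express, at 1139, 1172 and 2131 in ND and 2072, 2899 and 3071 in HFD; the defining *Flt3* and *Zbtb46* had no row. Of 6 B cell markers the only one measured, *Ighm*, read 1889 to 3061 in ND and 1876 to 2075 in HFD, while *Cd79a* had no row. *Kit*, 1 of 5 mast cell and basophil markers, read 117 to 226 in ND and 72.4 to 104 in HFD, without overlap, and *Cpa3* had no row. *Cd4*, 1 of 7 T cell markers, read 202 to 356 in ND and 98.1 to 230.0 in HFD, and *Cd3e* had no row. The 3 of 7 stromal markers measured summed to 177 to 549 in ND and 51.8 to 337 in HFD, and 0 of 7 erythroid markers were measured. The part of such cells in the results below was not tested. The 5 measured osteoclast markers, *Mmp9* again among them, summed to 823, 961 and 2019 in ND replicates 1 to 3 and to 1766, 2259 and 2213 in HFD replicates 1 to 3. The 5 proliferation markers summed to 8715 to 9628 in ND and 7394 to 10475 in HFD.

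All 6 genes were abundant in these macrophages. Per kilobase of transcript, the mean level of *Cyba* stood above 99.1% of annotated genes in the table and that of *Cybb* above 97.1%. *Ncf1* and *Rac1* stood above at least 94.5%, *Ncf4* above 91.4% and *Rac2* above 90.8%. On this scale, normalized signal divided by the length of the main annotated transcript, *Cyba* ranged from 7886 to 9204 over the 6 libraries and *Cybb* from 3070 to 3840. Every library held the same order of these membrane subunits, with no overlap between them or with the genes below. *Ncf1* ranged from 1955 to 2349 and *Rac1* from 1864 to 1991, so these neighbours overlapped. *Ncf4*, from 1154 to 1401, and *Rac2*, from 1070 to 1288, overlapped as well and lay below every *Rac1* value. With the length of all annotated exons in place of the main transcript, *Rac1* moved ahead of *Ncf1* and *Rac2* ahead of *Ncf4*, so the order within those pairs depends on the length used. The remaining Rac gene, *Rac3*, lay far lower, at 65.5 to 110.8 per kilobase.

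**Figure D1:**
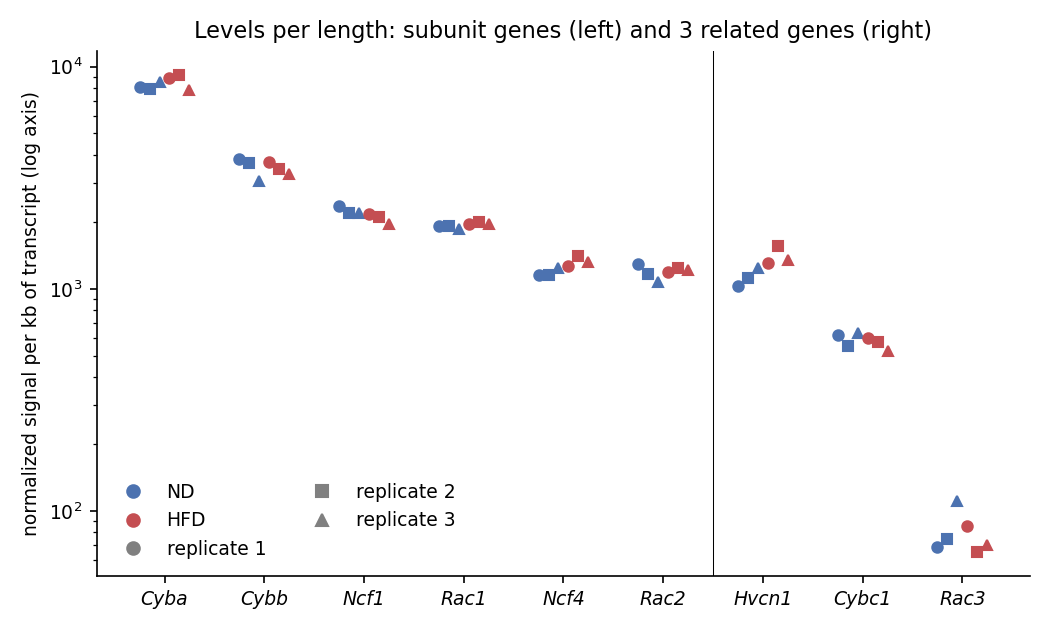
Normalized signal per kilobase of the main transcript (log axis) for the 6 subunit genes in order of level and, right of the line, 3 related genes; each point is 1 library, coloured by diet and shaped by replicate number. *Cyba* and *Cybb* lie above the rest in every library, and *Rac3* lies between 65.5 and 110.8.

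No oxidase subunit differed between the diets at an adjusted p of 0.05, and the largest difference among the 6 was a 12.6% higher level of *Ncf4* in HFD. The test was limma on log2(signal + 1), 3 HFD against 3 ND libraries, two-sided, with Benjamini-Hochberg adjustment over all 13232 genes. It called 0 of the 6 genes, against 0 of all genes (0.0%). At an unadjusted p under 0.05 it called 1 of the 6, *Ncf4*, against 10.6% of all genes. For 3 of the 6 no HFD library overlapped an ND library, against 14.5% of all genes: *Ncf4* and *Rac1* were higher (7.44% of all genes) and *Ncf1* was lower (7.07%). The median log2 fold change over the 6 genes was 0.049, with 4 higher and 2 lower in HFD, and over all genes it was -0.0034. Each 95% interval, taken gene by gene and written as the percent difference of HFD from ND, lay between -16.1% and 24.5%. Without HFD replicate 1 the log2 fold changes ran from -0.14 for *Ncf1* to 0.21 for *Ncf4* and 0 of the 6 passed (limma adjusted p 0.299 to 0.857). These are bulk RNA values, in which fewer expressing cells and less RNA per cell cannot be told apart. Nothing in the labels says that replicates came from separate animals or cultures, so the p-values measure the spread between these libraries, which may be technical.

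**Figure D2:**
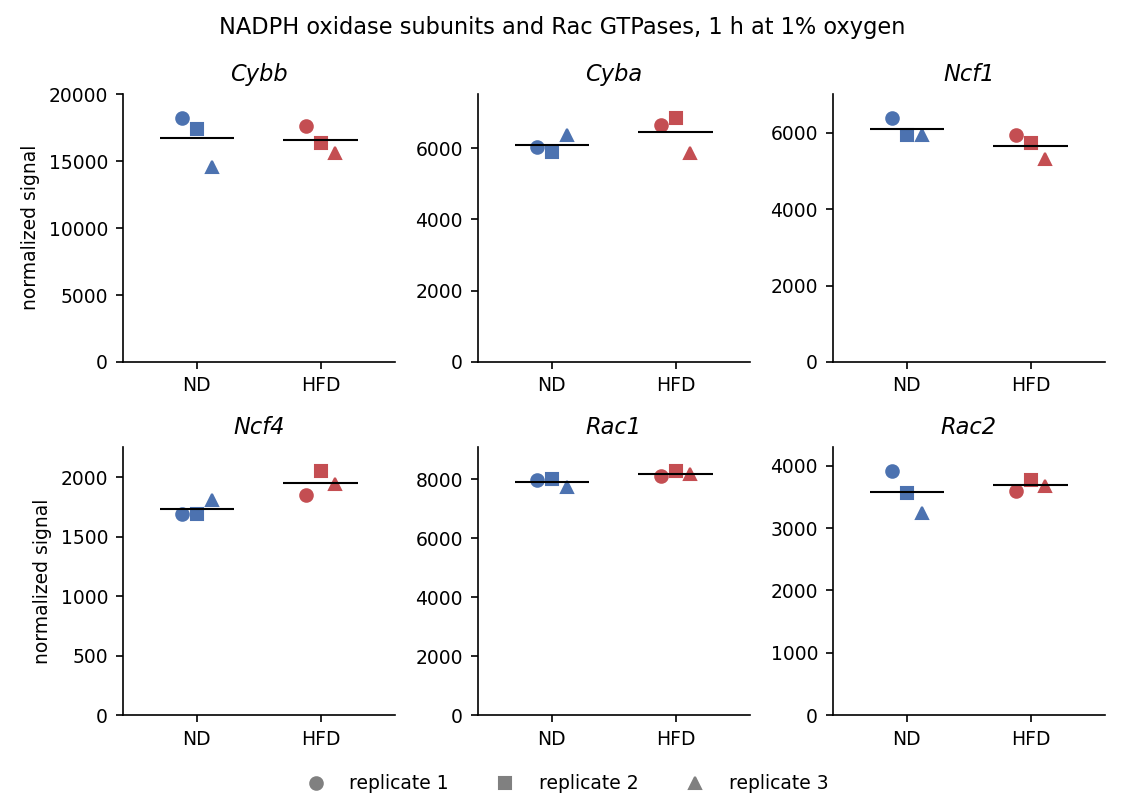
Normalized signal of each subunit gene in each library (axes start at 0), with bars at the diet means of 3 libraries. The diets overlap for *Cybb*, *Cyba* and *Rac2*; for *Ncf4* and *Rac1* the HFD points lie above, and for *Ncf1* below, by narrow margins.

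*Cybb*, the catalytic core, had a normalized signal of 18246, 17434 and 14588 in ND replicates 1 to 3 and of 17655, 16404 and 15625 in HFD replicates 1 to 3. ND held both the highest and the lowest value, with ND replicate 3 the lowest of all 6, and HFD lay inside that range. The log2 fold change, HFD minus ND, was -0.012 (SE 0.093, limma adjusted p 0.978), with an interval from -14.1% to 14.5%. Its sign rested on single libraries, since it was 0.053 when ND replicate 1 was removed, 0.020 when ND replicate 2 was, 0.029 when HFD replicate 3 was and -0.11 when ND replicate 3 was. *Cyba*, the partner that stabilizes the catalytic subunit and docks the organizer, read 6022, 5902 and 6357 in ND and 6638, 6848 and 5867 in HFD. HFD replicates 1 and 2 were the highest and HFD replicate 3 was the lowest, so the diets overlapped. Its log2 fold change was 0.080 (SE 0.072, limma adjusted p 0.745), with an interval from -5.5% to 18.2%. It was 0.035 without HFD replicate 2, the highest library, and 0.15 without HFD replicate 3, the lowest.

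Among the cytosolic subunits, the organizer and *Ncf4* lay on opposite sides of no change. *Ncf1* read 6392, 5950 and 5951 in ND and 5932, 5732 and 5318 in HFD. All HFD values were below all ND values, but the gap between the nearest libraries was 0.314% of the mean level, less than the counting error of up to 1.41%. The log2 fold change was -0.11 (SE 0.065, limma adjusted p 0.610), with an interval from -16.1% to 2.7%. It lay between -0.14 and -0.064 when any single library was left out.

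*Ncf4* read 1690, 1690 and 1812 in ND and 1853, 2052 and 1941 in HFD. Every HFD library was above every ND library, ND replicate 3 was the nearest to HFD, and the gap was 2.26% of the mean level against a counting error of up to 2.55%. The log2 fold change was 0.17 (SE 0.065, limma unadjusted p 0.0262 and adjusted p 0.402), with an interval from 1.7% to 24.5%, and 73.6% of all genes changed less in size. *Ncf4* passed the threshold in 1 alternative, limma with a weight for each library (log2 fold change 0.23, adjusted p 0.0323), in which 8.56% of all genes passed. That fit gave HFD replicate 2, the highest *Ncf4* library, a weight of 3.09 and ND replicate 3 a weight of 0.441. Without ND replicate 3 the log2 fold change was 0.20 (limma adjusted p 0.169), and the adjusted p was between 0.0323 and 0.934 over all alternatives. The summed neutrophil markers were also highest in HFD replicate 2 (4985), where *Ncf4* was highest, while HFD replicate 3, with the next highest *Ncf4*, had 3447; the part of such cells in the *Ncf4* values was not tested.

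The Rac genes differed by little. *Rac1* read 7978, 8002 and 7751 in ND and 8128, 8279 and 8170 in HFD, with no overlap. The gap between the nearest libraries was 1.56% of the mean level, against a counting error of up to 1.23%. The spread within a diet was an SD of 0.020 on the log2 scale. Of the 2321 genes with levels in the range of the 6 subunits, whose median SD was 0.084, 1.29% had a smaller one. The log2 fold change was 0.051 (SE 0.056, limma adjusted p 0.797), with an interval from -5.0% to 12.9%. This SE is larger than the replicates of *Rac1* alone would give, because limma draws each gene's spread towards that of genes at the same level. *Rac2* read 3913, 3558 and 3250 in ND and 3602, 3775 and 3679 in HFD, so the ND libraries enclosed all HFD values. Its log2 fold change was 0.048 (SE 0.074, limma adjusted p 0.861), with an interval from -7.8% to 16.0%. Without ND replicate 3, the lowest library, it was -0.018, and without ND replicate 1, the highest, 0.12. On the log2 scale ND replicate 3 lay nearer to the HFD mean than to the mean of the other ND libraries for *Cybb*, *Cyba* and *Rac2*. These were 3 of the 6 genes, against 60.2% of all genes.

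**Figure D3:**
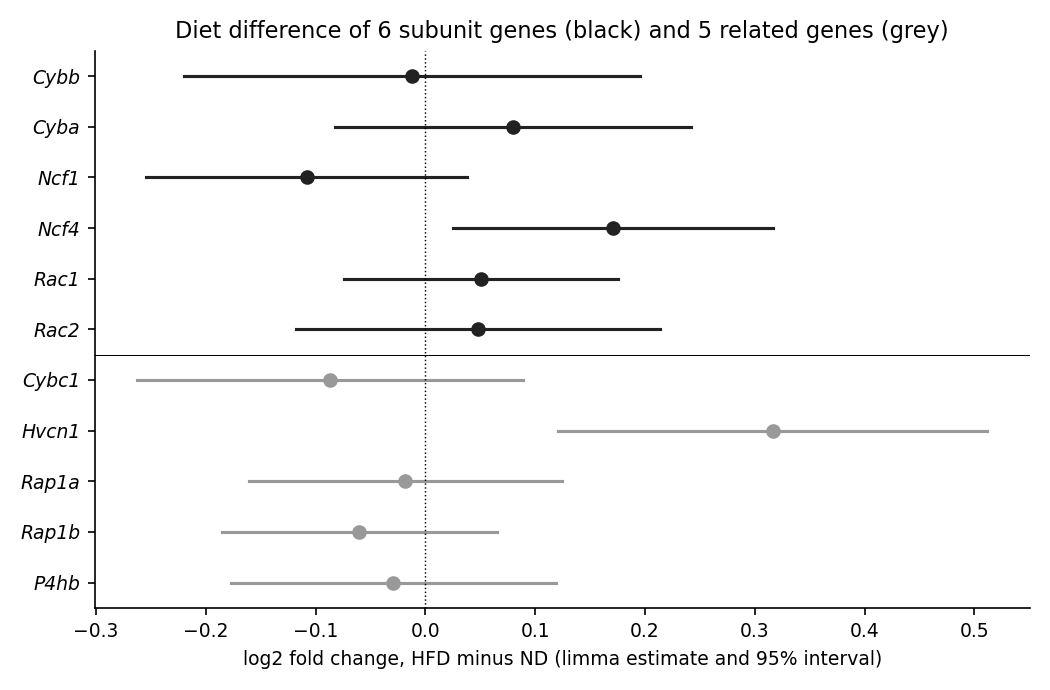
Log2 fold change, HFD minus ND, with limma's 95% interval for the 6 subunit genes (black) and 5 measured genes of the oxidase family and assembly list (grey). The intervals of *Ncf4* and *Hvcn1* lie above 0 before adjustment over all genes, and the others include 0.

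Ratios of genes within a library do not depend on how the library was scaled, and 3 were compared. *Ncf1* over *Ncf4*, the ratio of signals, was 3.78, 3.52 and 3.29 in ND and 3.20, 2.79 and 2.74 in HFD. The means were 3.53 ± 0.248 in ND and 2.91 ± 0.252 in HFD (SD, n = 3), with no overlap. On the log2 scale the ratio was 0.28 lower in HFD, written as -0.28 for HFD minus ND (exact two-sided permutation test, p = 0.1, the smallest that 20 assignments allow, and 0.3 adjusted over 3 ratios). ND replicate 3 was again the ND library nearest to HFD, and the difference stayed between -0.35 and -0.23 when any single library was left out. *Cybb* over *Cyba* was 3.03, 2.95 and 2.29 in ND and 2.66, 2.40 and 2.66 in HFD, with ND replicate 3 the lowest of all. The difference was -0.092 on the log2 scale (exact permutation p = 0.6, 0.9 adjusted), and its size rested on single libraries: it was -0.22 without ND replicate 3, -0.019 without ND replicate 1, -0.037 without ND replicate 2 and -0.041 without HFD replicate 2. *Rac2* over *Rac1* was 0.491, 0.445 and 0.419 in ND and 0.443, 0.456 and 0.450 in HFD. The means were 0.451 ± 0.0361 and 0.450 ± 0.00640 (SD, n = 3), the HFD libraries lying inside the range of the ND libraries. The difference was -0.0024 on the log2 scale (exact permutation p = 0.9, 0.9 adjusted) and changed sign with the library removed (from -0.054 to 0.059). Per kilobase, the mean *Rac2* to *Rac1* ratio was 0.618 in ND and 0.616 in HFD.

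**Figure D4:**
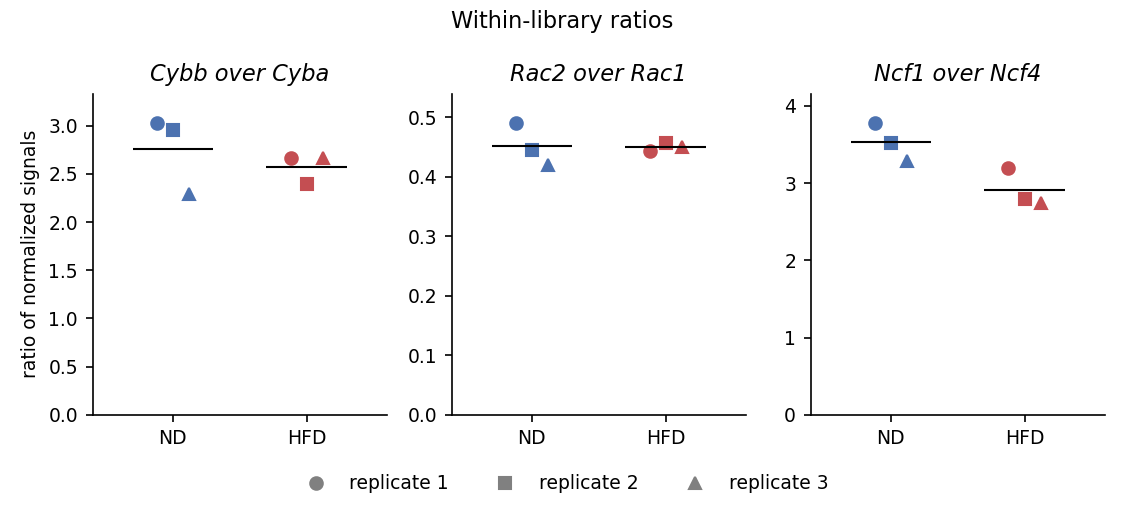
Ratios of normalized signals within each library (axes start at 0), with bars at the diet means of 3 libraries. *Ncf1* over *Ncf4* is 3.29 to 3.78 in ND and 2.74 to 3.20 in HFD; the other ratios overlap between the diets.

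The profiles most like each subunit were found by the root mean square difference between centred log2 profiles over the 6 libraries, among 10788 genes with a mean signal of at least 100. They were *Ldb1* (0.024) and *Susd6* (0.028) for *Cybb*, where the median gene differed by 0.15. For *Cyba* they were *Zfp787* (0.016) and *Emc10* (0.017), and for *Ncf1*, *Rpl3* (0.011) and *Npc2* (0.018). The nearest to *Ncf4* were *Galns* (0.014) and *Nmt1* (0.014), to *Rac1*, *Tor1a* (0.011) and *Ilk* (0.012), and to *Rac2*, *Cep57* (0.027) and *Cask* (0.027). With 6 libraries and 10788 genes such matches arise readily, and they are given as a description. No 2 subunits were this close to each other, but a search of 10788 genes finds closer matches than a search of the few other subunits. The nearest pair was *Rac1* and *Rac2* (0.067), where the median gene differed by 0.11 from *Rac1* and by 0.13 from *Rac2*. *Cybb* and *Rac2* (0.080) followed. The farthest pair was *Cybb* and *Ncf4* (0.18), against medians of 0.15 for *Cybb* and 0.14 for *Ncf4*.

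Of 15 other genes of the oxidase family and its assembly, 6 were measured, and 0 passed the adjusted threshold in limma. At an unadjusted p under 0.05 there was 1 higher in HFD, against 5.4% of all genes, and 0 lower, against 5.18%. The median log2 fold change was -0.024, and it lay between -0.037 and -0.0088 when any single library was left out. *Cybc1*, a chaperone that the flavocytochrome needs, was at -0.087 (limma adjusted p 0.743), and between -0.15 (ND replicate 2 left out) and -0.030 (HFD replicate 3 left out). *Rap1a*, a GTPase that copurifies with the flavocytochrome, was at -0.018, its close relative *Rap1b* at -0.060, and *P4hb*, a disulfide isomerase that associates with the oxidase, at -0.029. Leaving out ND replicate 2 put *P4hb* at -0.082 and leaving out ND replicate 3 at -0.0014. The diets did not overlap for 2 of the 6, *Hvcn1* (higher) and *Rap1b* (lower), against 14.5% of all genes. For *Rap1b* the gap between the nearest libraries was 1.15% of the mean level, less than the counting error of up to 1.20%.

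*Hvcn1* encodes the voltage-gated proton channel that carries protons out of the cell and so balances the charge the oxidase moves across the membrane. It had the largest difference of this list, at 2896, 3123 and 3465 in ND and 3679, 4363 and 3769 in HFD. All HFD libraries were above all ND libraries, with ND replicate 3 the highest ND value and HFD replicate 2 the highest of all. The gap between the nearest libraries was 6.03% of the mean level, against a counting error of up to 1.86%. The log2 fold change was 0.32 (SE 0.087, limma unadjusted p 0.00491 and adjusted p 0.284), or 24.5% higher with an interval from 8.8% to 42.6%. It was 0.38 without ND replicate 3 (limma adjusted p 0.0571) and passed with library weights (0.46, adjusted p 0.00971). The adjusted p ran from 0.00971 to 0.882 over the alternatives, and without HFD replicate 2 the log2 fold change was 0.24. *Hvcn1* shares 44.2% of its exonic bases with *Tctn1* on the opposite strand, whose signal was 324 to 355.

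Rac regulators and related GTPases had 37 of 38 genes measured, 24 higher in HFD and 13 lower (median log2 fold change 0.046). In limma 0 passed the adjusted threshold; at an unadjusted p under 0.05 there were 3 higher and 1 lower, against 5.4% and 5.18% of all genes. The diets did not overlap for 5 (13.5%), near the 14.5% of all genes. The inhibitors *Arhgdia* (0.13) and *Arhgdib* (0.052), which hold Rac in the cytosol, and the exchange factors *Vav1* (-0.020) and *Dock2* (0.13) with the *Dock* partner *Elmo1* (0.10) had limma adjusted p-values of 0.578 to 0.929. The GTPases *Rhoa* (0.070), *Rhog* (0.076), *Cdc42* (0.13) and *Rac3* (-0.18) lay between 0.517 and 0.812. For *Cdc42* the diets did not overlap. The largest differences of the list were *Rhoc* (0.65, limma adjusted p 0.288) and *Rhoj* (0.41, 0.362). *Rhoc* read 700, 843 and 1236 in ND and 1191, 1596 and 1481 in HFD, so that ND replicate 3 lay within the HFD range. Without ND replicate 3 it was at 0.88 with an adjusted p of 0.0163. *Arhgap25*, chosen after its values were seen and known as a GTPase-activating protein for Rac, was at 0.41 over all 6 libraries (limma adjusted p 0.318), with overlap between the diets, and at 0.55 in the fit that omits ND replicate 3 (adjusted p 0.0241). These were the 2 of 37 genes that passed in that fit, against 1.76% of all genes.

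Among kinases and lipid enzymes that act upstream of assembly, all 24 were measured, 14 higher and 10 lower in HFD. Their median was 0.021, and it turned to -0.0023 when ND replicate 3 was left out. With limma 0 passed the adjusted threshold, and 2 higher and 0 lower had an unadjusted p under 0.05, against 5.4% and 5.18% of all genes. *Prkcd* (log2 fold change 0.11) and *Prkcb* (0.18), protein kinase C forms that phosphorylate the organizer subunit, had limma adjusted p-values of 0.566 and 0.458. *Syk* (0.045), *Mapk14* (-0.050) and *Pla2g4a* (0.11) lay between 0.807 and 0.877. *Fgr*, a Src family kinase, was low and had the largest difference, with 60.9, 72.4 and 69.7 in ND and 112.6, 160 and 104 in HFD. Its diets did not overlap, with a log2 fold change of 0.86 (SE 0.18, limma adjusted p 0.197; 0.0082 to 0.860 over the alternatives). The next largest was *Prkce* at -0.21 (limma adjusted p 0.700).

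Of the transcription factors known to act on oxidase subunit genes, 17 of 20 were measured, 9 higher and 8 lower in HFD, with a median of 0.0034. The sign of this median was not stable, from -0.028 with ND replicate 3 left out to 0.030 with ND replicate 2 left out. With limma 0 passed the adjusted threshold, and 1 higher and 2 lower had an unadjusted p under 0.05, against 5.4% and 5.18% of all genes. *Spi1*, which encodes PU.1, read 3973, 4124 and 4198 in ND and 4342, 4324 and 3877 in HFD, a log2 fold change of 0.027 (SE 0.065, limma adjusted p 0.914). Over the alternatives its log2 fold change ran from -0.0012 to 0.081. *Irf8* was at -0.028 (limma adjusted p 0.923) and *Irf1* at -0.051 (0.863). The largest difference belonged to a gene at low level, *Satb1* (-0.47, limma adjusted p 0.519), with no overlap between the diets.

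The last list holds enzymes that remove superoxide and the peroxide formed from it. Of its 18 genes 17 were measured, 13 higher and 4 lower, and the median log2 fold change was 0.13 against -0.0034 for all genes. Leaving out ND replicate 1 brought this median to 0.061, and leaving out ND replicate 3 brought it to 0.16. In limma 0 passed the adjusted threshold, and at an unadjusted p under 0.05 there were 8 higher and 1 lower, against 5.4% and 5.18% of all genes. *Sod1* (0.14) and *Sod2* (0.19), which convert superoxide to hydrogen peroxide, had limma adjusted p-values of 0.458 and 0.465. Catalase, *Cat*, which splits hydrogen peroxide, read 12428, 15589 and 14202 in ND and 16017, 18547 and 17520 in HFD. These did not overlap, with a log2 fold change of 0.31 (SE 0.093, limma adjusted p 0.318). *Gpx1*, a glutathione peroxidase, was at 0.30 (0.353). The largest were *Prdx1*, a peroxiredoxin, at 0.71 (SE 0.19, limma adjusted p 0.278), and *Gpx3*, a secreted glutathione peroxidase, at -0.57 (SE 0.20, limma adjusted p 0.366). *Prdx1* read 25627, 29044 and 44411 in ND and 43975, 57005 and 58269 in HFD, so ND replicate 3 lay just above the lowest HFD library. Without ND replicate 3, 6 of the 17 passed in limma (5 higher and *Gpx3* lower), against 1.76% of all genes. For 12 of the 17 (70.6%) that library lay nearer to the HFD mean than to the mean of the other ND libraries. Over all genes this share was 60.2%. In the fit without it 0 of the 6 subunits passed, which at a share of 1.76% does not set them apart from all genes.

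**Figure D5:**
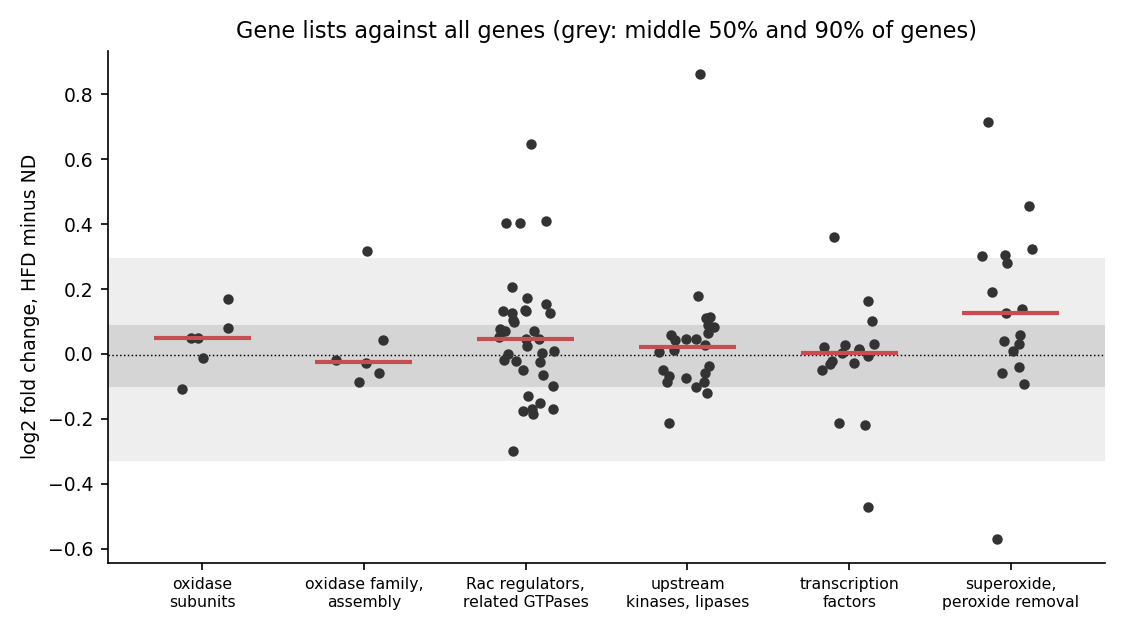
Log2 fold change, HFD minus ND, of each measured gene (points) in the oxidase subunits and 5 related lists, with red bars at the list medians; grey bands hold the middle 50% (-0.098 to 0.086) and 90% (-0.33 to 0.29) of all 13232 genes. All 6 subunits lie inside the wider band.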

How the data were processed

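RNA was sequenced from rRNA-depleted stranded libraries (100 ng of total RNA, single reads of 75 bases), per the labels' protocols. The submitters' processing notes name mm10, STAR and Partek, with no version or role. The authors deposited a normalized signal per gene: 57.1% to 58.4% of values between 5 and 1000 were whole multiples (within 0.02) of 1 step per library, so it was read as estimated counts divided by a size factor. Whole reads could not be recovered, so no count test was run. The sum of a column divided by its step gave the depth, and intervals for counting cover counting error only. A column named NC was read as normal diet; 0 columns were left unmatched. The design allowed for counts or normalized values, and the latter test was used: log2(signal + 1), limma 3.58.1 in R 4.3.3, with a mean-variance trend, no filter on low values and adjustment over 13232 genes. Fold changes are on that scale, which understates changes of low genes.

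The genes, the lists and the tests were chosen with earlier results of these data known. Named were the 6 subunits, the measured assembly genes, fixed examples of each other list, the 2 largest differences of each and the 2 profiles nearest each subunit; some of these genes are not reported here. GENCODE M21 gave positions, lengths and sequences, matching 12964 symbols. The alternatives tried were a pseudocount of 0.1, minimum levels, quantile and column-total scaling, no variance trend, library weights, the replicate block and leaving out each library. The fit was tested on simulated data.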

Additional observations from a re-analysis of the deposited data

How the results depend on the processing

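Against 0 genes past the adjusted threshold, library weights gave 1133, the replicate block 31 and leaving out a library 0 to 233 (without ND replicate 3); the others gave 0. Of the 6 subunits 1 passed with library weights, *Ncf4* (0.23), and 0 in every other alternative, leaving out a library included. When a library was left out, the log2 fold change ranged from -0.11 to 0.053 for *Cybb*, from -0.018 to 0.12 for *Rac2* and from -0.053 to 0.014 for *Rap1a*, and the log2 ratio of *Rac2* over *Rac1* from -0.054 to 0.059. *Rap1a* was at 0.022 with library weights. Library weights also put *Cybb* at -0.082, *Cyba* at 0.15 and *Rac2* at 0.0057, and quantile normalization put *Cybb* at -0.069, *Rac1* at 0.015 and *P4hb* at -0.081; *Cybb* was at -0.024 when scaled to column totals. The median of the assembly list was -0.056 after quantile normalization and -0.0018 with library weights, and that of the Rac regulators 0.016 after quantile normalization. The medians of the upstream kinases (-0.00086) and transcription factors (-0.0035) were below 0 after quantile normalization, and that of the transcription factors also with column totals (-0.0089) and library weights (-0.0030). With library weights 8.56% of all genes passed. In that fit 1 of 6 genes of the assembly list (*Hvcn1* at 0.46) and 5 of 37 Rac regulators passed. So did 1 of 24 upstream kinases, 3 of 17 transcription factors and 8 of 17 superoxide and peroxide enzymes. Leaving out a library gave 0 to 2 Rac regulators and 0 to 6 such enzymes. The highest counts came without ND replicate 3, where 1.76% of all genes passed. The cause was not tested. The labels give no pairing of the libraries by replicate number. Residual correlations were 0.089, -0.11 and 0.027 for same-numbered libraries and from -0.24 to 0.26 for the others. They show no pairing, but with 3 libraries per diet they cannot settle whether there was any. The replicate block called 0 of the 6 subunits. Counting error limits a single value of *Ncf4* to 2.55% and of *Cybb* to 0.900%, while 3 libraries a diet limit each comparison.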
